A study of Mus musculus with 9 samples.

Results

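The genes described here are those in which the OGP libraries stood apart from every other library of the study, either all 3 above or all 3 below the 6 control and OGE libraries. OGP cells were wild-type HT22 cells that went through oxygen-glucose deprivation (OGD) for 2 h and were then reoxygenated in the presence of PBS for 24 h. In OGE cells the OGD was identical and reoxygenation took place with hiPS-MSC-EVs, the extracellular vesicles of mesenchymal stem cells made from human induced pluripotent stem cells, and control cells were left without treatment. Of 13245 genes whose FPKM (fragments per kilobase of gene, scaled to library depth) averaged 0.5 or more over the 9 libraries, 2795 were separated in this way, 1287 (9.72%) with OGP above and 1508 (11.4%) with OGP below. The question was how far OGE returned to the control level in genes that set OGP apart. The differences of OGP from either group chose the genes and are given as a description with no test. OGE was compared with control in a fit over all tested genes. The choice bears on this comparison too, since no gene could enter in which an OGE library reached OGP, so that OGE was bounded on the OGP side of control and not on the other side.

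HT22 is an immortalized line from mouse hippocampal neurons, and a single line stood for neurons here. Each group held 3 libraries, which the sources used here do not describe as separate cultures, so that p-values cover only the scatter of these libraries, and this may be technical. The medium after OGD is given as standard medium in the labels, whereas the methods of the study speak of exosome-free serum, no serum or EVs. EVs and serum therefore cannot be told apart in OGP against OGE. In OGE against control, OGD, EVs and serum cannot be told apart, as control cells had neither OGD nor EVs. The labels of the libraries give no EV dose, and the study used more than 1 dose on HT22 cells.

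When oxygen falls, the HIF-1 transcription factor accumulates and switches on glucose uptake, glycolysis and lactate export, and it is degraded again once oxygen returns. Shortage of amino acids, oxidants or misfolded proteins raises translation of the transcription factor ATF4, whose targets make serine, proline, asparagine and cysteine. Interferons act on the ISRE, a promoter element of antiviral genes. Cytokines of the interleukin-6 family act through STAT3 on acute-phase genes, which code for secreted proteins of inflammation.

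Promoter windows of 6 separated genes, from RefSeq on GRCm38.p6 (the mm10 assembly of the alignment), show the motifs that stand behind these names. The ISRE core was searched as GAAA, any 2 bases and GAAA again, the STAT site as TTCNNNGAA and the hypoxia core as ACGTG or GCGTG, each on both strands and each on its own, so that overlaps between motifs stayed in. Capitals mark the match, and each piece lies upstream of the start site. Gbp3 (chr3:142559954-142560043, + strand) and Gbp2 (chr3:142620559-142620648, + strand), antiviral GTPase genes with OGP above, carry the ISRE core on the reverse strand:
Gbp3: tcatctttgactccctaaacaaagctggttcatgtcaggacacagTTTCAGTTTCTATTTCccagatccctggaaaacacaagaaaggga
Gbp2: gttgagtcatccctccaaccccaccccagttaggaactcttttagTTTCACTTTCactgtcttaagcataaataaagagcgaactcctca
Socs3 (chr11:117969476-117969565, - strand), the feedback inhibitor of STAT3, and Steap4 (chr5:7960311-7960400, + strand), a metalloreductase, had OGP below and carry a STAT site:
Socs3: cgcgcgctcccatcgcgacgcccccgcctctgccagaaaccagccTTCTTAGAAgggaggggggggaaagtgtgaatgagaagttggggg
Steap4: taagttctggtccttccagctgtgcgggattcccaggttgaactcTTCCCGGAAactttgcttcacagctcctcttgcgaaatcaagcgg
Pfkfb3 (chr2:11553945-11554034, - strand), the enzyme that makes the activator of phosphofructokinase, and Slc16a3 (chr11:120948977-120949066, + strand), a lactate exporter, had OGP below and carry the hypoxia core:
Pfkfb3: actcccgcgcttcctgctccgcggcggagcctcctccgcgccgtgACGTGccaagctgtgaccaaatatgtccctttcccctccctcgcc
Slc16a3: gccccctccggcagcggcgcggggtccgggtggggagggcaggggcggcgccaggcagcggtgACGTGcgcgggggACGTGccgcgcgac

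Windows from 250 bases before to 50 after the start were found for 9195 of 13243 tested symbols (69.4%) and for 76.1% of the separated ones. That is under the 80% needed, so a comparison of motifs over all separated genes is void, and only lists with higher coverage are described (19 of 22, 10 of 12 and 15 of 15 genes). The ISRE core lay in 11 of 19 windows (57.9%) of separated interferon-stimulated effectors and in 3.80% of all windows. In the same 19 windows the AP-1 site TGANTCA lay in 7 (36.8%, against 6.03% of all) and the STAT site in 6 (31.6%, against 8.13%). The STAT site lay in 2 of 10 windows of separated STAT3 and acute-phase genes. The hypoxia core lay in 12 of 15 windows of glycolytic genes with OGP below, but also in 68.9% of all windows. The shares of all windows rest on the same 69.4% of symbols, so list shares are set beside them and nothing is concluded from the difference. Genes of the same family, such as Gbp2 and Gbp3, were counted as separate windows. A match is a description of letters in these windows and not evidence of binding.

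The libraries held 15026700 to 19476806 reads in genes, recovered from FPKM and gene length. The study states a larger number of clean reads per sample, and the reason for the difference was not tested. On the first principal component (33.9% of the variance) control lay at 23.6 to 36.2, OGP at -8.2 to -12.3 and OGE at -20.2 to -21.4. OGE was thus farther from control than OGP on this component. On the second (27.2%) the OGP libraries lay at -21.5 to -29.6 and all others at 1.0 to 22.2. Control replicate 1 and OGE replicate 3 lay apart on the third, at 33.1 and -19.4. Of 16 neuron markers only Tubb3, Map2 and Eno2 reached a mean of 0.5 FPKM over the 9 libraries, and Rbfox3, Snap25 and Stmn2 were at or near 0 in every library. Summed mesenchymal markers were 870.2 to 950.3 FPKM in OGP, 632 to 726 in control and 530.0 to 626 in OGE, carried mainly by Vim and Acta2. Not every member followed the sum. Acta2, S100a4, Vim and Eng had OGP above all other libraries, whereas Pdgfra was lowest in OGP and Pdgfrb overlapped between the groups. Nt5e was highest in OGE, at 4.15 to 5.01 FPKM, against at most 1.74 in OGP and at most 1.39 in control. Summed astrocyte markers, mainly Gja1 and Slc1a3, were 18.2 to 19.5 FPKM in OGP, 38.2 to 44.5 in control and 29.5 to 38.4 in OGE, with Aqp4 at 0 and Gfap near 0. Gja1 overlapped control in OGE, whereas Slc1a3 was lowest in OGE. Slc1a3 had 2.46 to 3.17 FPKM in OGE, 3.98 to 5.54 in OGP and 9.19 to 10.9 in control. The part of these differences in the results was not tested, and fewer cells of a kind cannot be told apart from less RNA per cell in bulk libraries.

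Most separations were narrow. The median gap between the nearest OGP library and the nearest of the 6 others was 0.121 on log2(FPKM + 0.5) for genes with OGP above and 0.105 for genes with OGP below, and a gap of at least 1.5-fold was left in 67 and 54 genes. At the edge of the rule, Frmd5 and Sirt5 (above) and Rnf19a and Prdm10 (below) were just inside, with gaps of 0.000346, 0.000341, 1.02e-05 and 5.61e-05. Sri and Gpr146 (above) and Setd2 and Virma (below) were just outside, where the groups overlapped by 8.85e-05, 4.46e-04, 1.10e-04 and 1.13e-04. In limma fitted over all 13245 genes, 561 (4.24%) were called higher and 409 (3.09%) lower in OGP than in the mean of both other groups, where a call needed 1.5-fold or more and an adjusted p no higher than 0.05. Of the separated genes 421 and 315 were among these, which the choice of genes largely fixes.

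The OGE mean lay within the range of the 3 control libraries in 551 of the 1287 genes with OGP above (42.8%), fell short of it on the OGP side in 461 (35.8%) and passed beyond it in 275 (21.4%). Of the 1508 genes with OGP below, 597 (39.6%) were within the control range, 638 (42.3%) short of it and 273 (18.1%) past it. Control replicate 1 set much of this split, since without it 295 genes above were within and 573 past, and 322 genes below were within and 559 past. As a share of the way from the OGP to the control mean, where 100% would be a full return, the median was 86.2% (quartiles 60.9 and 124%) for genes above and 80.4% (55.8 and 116%) for genes below. By limma, OGE differed from control in 53 genes above that stayed short (4.12%) and in 89 that went past (6.92%). In genes below it differed in 82 that stayed short (5.44%) and in 25 that went past (1.66%). Over all tested genes 5.14% were called higher and 6.33% lower in OGE than in control. The choice of genes limits how far short of control OGE could stay, and thus in part fixes these shares and the median shares of the way, so nothing is read from them against all genes. The call was not made in 89.0% of genes above and 92.9% below. A missed call does not show that OGE was at the control level.

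**Figure D1:**
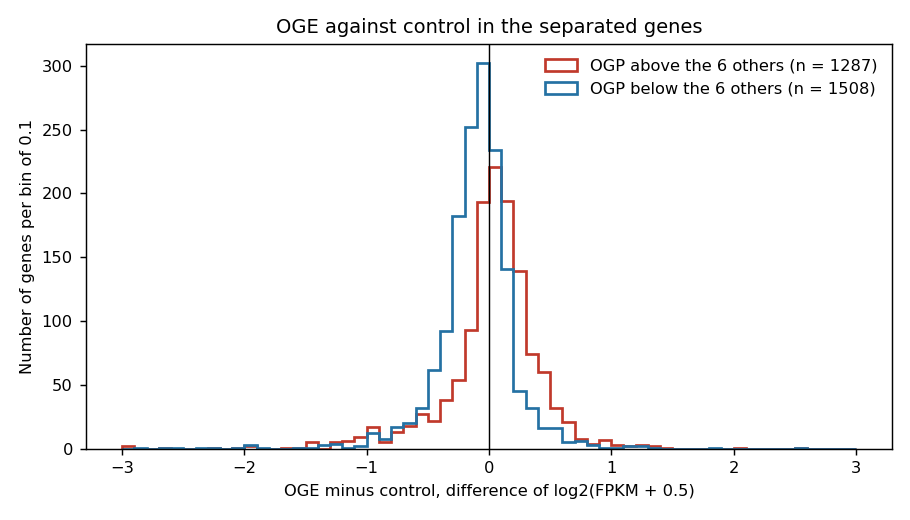
Difference of OGE from control on log2(FPKM + 0.5) (horizontal axis) against the number of genes per bin of 0.1 (vertical axis), for genes with OGP above (red) and below (blue) the 6 other libraries. Both distributions centre near 0, with medians of 0.06 and -0.08, and the red one has a longer tail to the left.

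The widest gaps with OGP below were in Chil1, Nos2 and Snai1. Chil1, a secreted chitinase-like protein, had 32.3, 24.6 and 29.4 FPKM in control, 1.10, 1.83 and 1.56 in OGP, and 14.1, 16.3 and 12.5 in OGE. OGE thus stood between the groups with no overlap, and by limma it was lower than control by a log2 difference of -0.98 (SE 0.16, adjusted p = 0.00215). Nos2, the inducible nitric oxide synthase, had 54.8, 54.4 and 53.3 FPKM in control, 10.1, 9.26 and 9.79 in OGP, and 48.2, 54.9 and 43.9 in OGE. OGE overlapped control in Nos2, and the difference of -0.15 (SE 0.088, limma adjusted p = 0.254) did not pass. Snai1, a zinc-finger repressor of epithelial genes, had 2.90, 3.93 and 3.15 FPKM in control, 0.530, 0.339 and 0.379 in OGP, and 3.56, 4.19 and 3.30 in OGE, again with control and OGE overlapping.

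Other genes with wide gaps below differed in how far OGE lay from OGP. Rasl11a, a small GTPase of the Ras family, had 36.9, 45.6 and 41.7 FPKM in control, 1.18, 1.37 and 1.59 in OGP, and 6.39, 6.54 and 5.96 in OGE, 41.5% of the way back and lower than control by -2.62 (SE 0.11, limma adjusted p = 1.61e-06). Vtcn1, an inhibitory ligand of T cells, went 55.3% of the way and stayed lower by -1.52 (SE 0.12, limma adjusted p = 3.27e-05). Tmeff1, a transmembrane protein with EGF-like and follistatin domains, went 96.7% of the way. Prss46, a serine protease gene, had 2.43, 2.67 and 2.48 FPKM in control, 0.413, 0.272 and 0.183 in OGP, and 11.2, 11.8 and 9.43 in OGE, so that control and OGE lay on the same side of OGP but did not overlap (difference 1.90, SE 0.13, limma adjusted p = 1.41e-05). Its neighbour Tmie, needed for hearing, was at 104% of the way, and the difference of OGE from control (0.07, SE 0.13, limma adjusted p = 0.739) did not pass. Sprr2e, a cornified envelope protein with close copies that can share reads, was at 0 to 0.190 FPKM in OGP, 2.99 to 4.69 in control and 1.46 to 2.49 in OGE.

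Among genes with OGP above, Vcam1, an adhesion molecule for leukocytes, had 1.74, 1.28 and 1.58 FPKM in control, 5.65, 6.41 and 6.34 in OGP, and 0.872, 0.912 and 0.697 in OGE. The 3 groups did not overlap, and OGE was lower than control by -0.61 (SE 0.12, limma adjusted p = 0.00576). Ctgf, a matricellular protein and target of YAP, had 7.47, 9.11 and 7.28 FPKM in control, 43.7, 44.8 and 52.8 in OGP, and 13.5, 16.1 and 11.5 in OGE, which left OGE higher than control by 0.74 (SE 0.14, limma adjusted p = 0.00422). Acox2, a peroxisomal oxidase, stayed higher by 0.67 (SE 0.11, limma adjusted p = 0.00296). Ctgf and Acox2 thus stopped at 70.3% and 71.2% of the way, while Vcam1 passed control. The call of Vcam1 was lost without control replicate 1 or without OGE replicate 3 (-0.54 each), as the fold then fell under 1.5.

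Nr4a1, an immediate-early nuclear receptor, had 4.47, 9.44 and 4.97 FPKM in control, 19.5, 26.6 and 22.6 in OGP, and 0.783, 0.690 and 1.10 in OGE. OGE lay far under control (-2.26, SE 0.25, limma adjusted p = 0.000228). Prelp, a leucine-rich repeat protein of the matrix, had 2.42 to 2.87 FPKM in control, 6.85 to 7.14 in OGP and 0.310 to 0.359 in OGE (-1.91, SE 0.092, limma adjusted p = 2.7e-06). Tgtp1, an interferon-induced GTPase whose copy Tgtp2 can share its reads, Glt8d2, Fbln5 of elastic fibres, the peptidase Mme and the hydrolase Cmbl also had wide gaps, and OGE was not called different from control in any of these 5. Tgtp1 (-0.46, SE 0.14, limma adjusted p = 0.0432) and Fbln5 (-0.28, SE 0.072, adjusted p = 0.0193) missed only the fold threshold. In both, every OGE library lay under every control library.

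**Figure D2:**
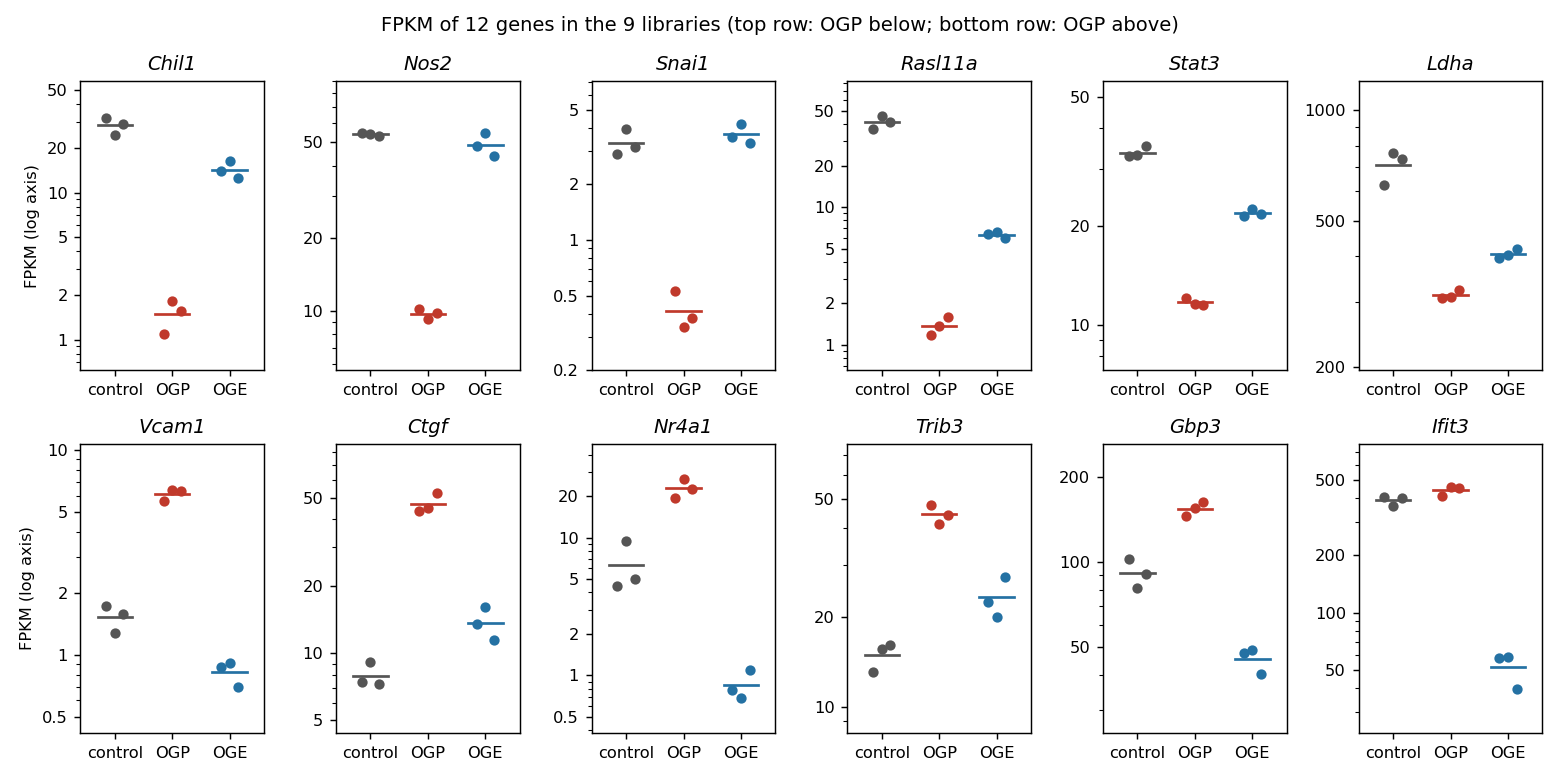
FPKM on a log axis for 12 separated genes in the control, OGP and OGE libraries, with 1 point a library and a line at the group mean. OGP is the lowest group in the top row and the highest in the bottom row, and the OGE points reach control in Nos2 and Snai1, stop between in Chil1, Rasl11a, Stat3, Ldha, Ctgf and Trib3, and pass control in Vcam1, Nr4a1, Gbp3 and Ifit3.

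Gene lists differed widely in how many members were separated. With OGP above, the largest shares among lists of at least 10 tested genes were in the ATF4 response (18 of 30) and interferon-stimulated effectors (22 of 47, 46.8%), beside 9.72% of all genes. With OGP below, they were in glycolysis and glucose uptake (15 of 23, 65.2%), STAT3 and acute-phase genes (12 of 24), other hypoxia-induced genes (10 of 29, 34.5%) and the extracellular matrix (10 of 32, 31.2%), beside 11.4% of all genes. Most of these separations were narrow as well. With a gap of at least 1.5-fold, 0 of the ATF4 genes, 1 interferon-stimulated effector, 0 glycolytic and 0 other hypoxia-induced genes were left, beside 6 STAT3 and acute-phase genes and 3 matrix genes with OGP below. Leaving out 1 library, which can only add separated genes, gave 18 to 20 ATF4 genes and 22 to 30 interferon-stimulated effectors above. It gave 15 glycolytic, 12 to 15 STAT3, 10 to 13 other hypoxia and 10 to 13 matrix genes below. Quantile normalization lowered the counts above to 13 ATF4 genes and 19 interferon-stimulated effectors. The counts below were then 15 glycolytic, 12 STAT3, 11 other hypoxia and 10 matrix genes. Of 13 mitochondrially encoded genes 0 were separated, but 5 had OGP above without OGP replicate 1.

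**Figure D3:**
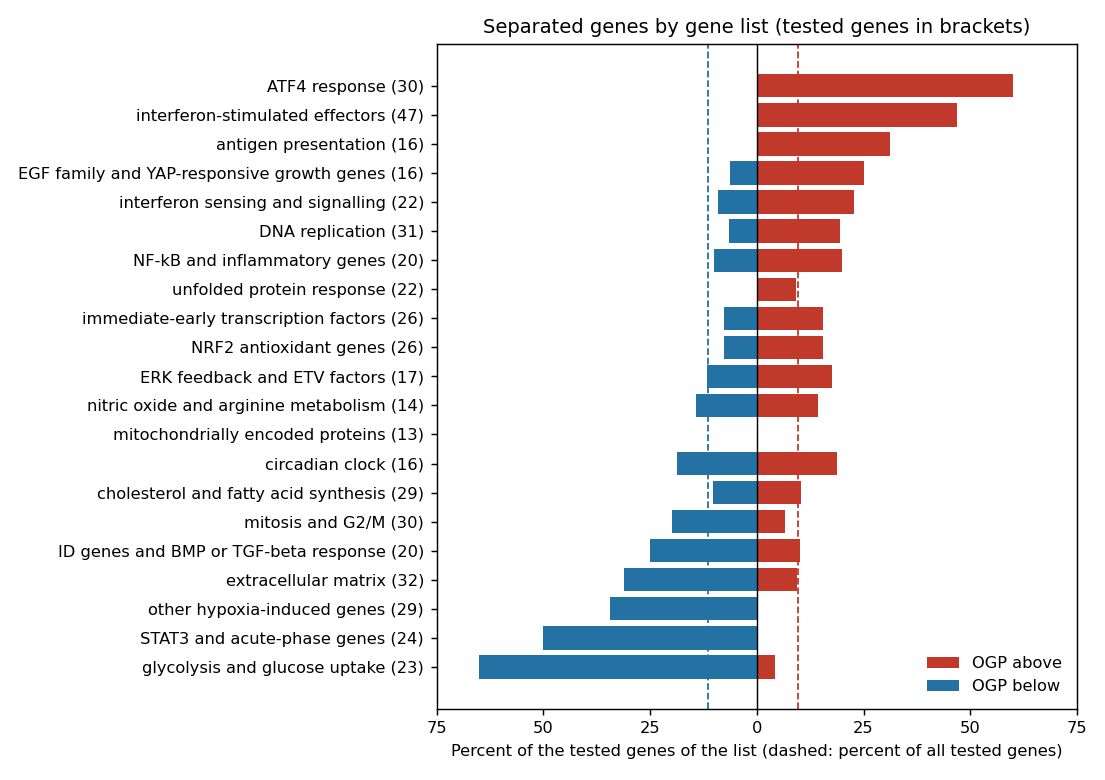
Percent of the tested genes of each list with OGP above (red, to the right) or below (blue, to the left) the 6 other libraries, with the percent of all tested genes as dashed lines (9.72 and 11.4%). ATF4 and interferon lists extend to the right and glycolysis, STAT3 and hypoxia lists to the left.

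In the STAT3 and acute-phase list no gene had OGP above. Stat3 itself had 32.8, 33.1 and 35.2 FPKM in control, 12.1, 11.6 and 11.5 in OGP, and 21.6, 22.7 and 21.8 in OGE. OGE was between the groups without overlap, 59.2% of the way and lower than control by -0.60 (SE 0.065, limma adjusted p = 0.000214). Upstream of it, Osmr, the oncostatin M receptor, had 24.7, 15.3 and 18.1 FPKM in control, 6.12, 6.69 and 6.61 in OGP, and 16.9, 18.3 and 15.1 in OGE, which overlapped control, as did Socs3 at 39.1, 38.0 and 44.8 FPKM against 41.2, 58.7 and 55.0. Among acute-phase products, Serpina3n, a protease inhibitor, went 29.2% of the way, Orm1, a plasma glycoprotein with the copy Orm2, 32.3%, and Saa3, serum amyloid A, 46.1%, while Chil1 went 74.7% and the median of the 12 separated genes was 66.8%. In all, 8 of the 12 OGE means were short of control, 2 within and 2 past it (Steap4 and the interleukin-4 receptor Il4ra), and 6 were called lower than control (Orm1, Serpina3n, Chil1, Cebpd, Saa3 and Stat3). The call of Cebpd was lost without control replicate 2 or 3 or any of the OGE libraries (-0.53 to -0.74). Il6, Lcn2 and Il33 were lower in OGE than in control (-1.75, -2.62 and -2.71) but were not separated, since OGE overlapped OGP.

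Glycolytic genes lay low in OGP from glucose entry to lactate. Slc2a1, the glucose transporter GLUT1, had 26.2, 28.8 and 28.3 FPKM in control, 16.1, 13.1 and 14.9 in OGP, and 20.4, 22.9 and 22.8 in OGE. Pfkfb3, whose promoter piece is shown above, had 5.65, 4.52 and 5.17 FPKM in control, 1.41, 1.25 and 0.886 in OGP, and 2.51, 2.46 and 2.21 in OGE. Ldha, which makes lactate from pyruvate, had 623, 764 and 736 FPKM in control, 307, 310.3 and 323 in OGP, and 396, 403 and 419 in OGE. In each of these 3 genes OGE was intermediate and touched neither group. OGE was called lower than control in Pfkfb3 (-0.95, SE 0.14, limma adjusted p = 0.00105), Ldha (-0.80, SE 0.094, adjusted p = 0.000357) and the phosphofructokinase Pfkp (-0.65, SE 0.091, adjusted p = 0.00099).

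Of the 15 glycolytic genes below, 13 OGE means were short of control and 2 within it (Pkm and Gpi1). Their median was 49.4% of the way, and their median OGE difference from control was -0.46. Over all separated genes with OGP below, these medians were 80.4% and -0.08. Aldoc, the brain aldolase, was the only member with OGP above, at 0.836 to 0.998 FPKM against 0.344 to 0.462 in the others. Among other hypoxia-induced genes, Hif1a, the oxygen-regulated subunit of HIF-1, had 123, 78.9 and 84.4 FPKM in control, 49.1, 56.7 and 55.0 in OGP, and 98.6, 111 and 77.2 in OGE, so that control and OGE overlapped. Its partner Arnt went 44.0% of the way, the oxygen sensor Egln1 62.1% and the adenylate kinase Ak4 28.4% (-0.91, SE 0.093, limma adjusted p = 0.000159). Bhlhe40, a clock-linked repressor, passed control, at 39.2, 41.7 and 36.0 FPKM in OGE against 16.0, 15.9 and 14.3 in control (1.31, SE 0.079, limma adjusted p = 7.52e-06). Vegfa, a HIF-1 target and the main angiogenic ligand, was higher in OGE than in control (1.08, SE 0.089, limma adjusted p = 4.4e-05) and was not separated.

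In the ATF4 response no gene had OGP below. Atf4 had 154, 200.2 and 197 FPKM in control, 310.1, 312 and 325 in OGP, and 243, 213 and 242 in OGE. Trib3, a pseudokinase that feeds back on ATF4, had 13.1, 15.6 and 16.2 FPKM in control, 47.8, 41.1 and 44.2 in OGP, and 22.6, 20.1 and 27.4 in OGE. Both were intermediate in OGE with no overlap, 55.9% and 59.6% of the way back. OGE stayed higher than control in Trib3 (0.62, SE 0.13, limma adjusted p = 0.00665), in the stress gene Nupr1 (0.94, SE 0.079, adjusted p = 5.01e-05) and in Cth, which makes cysteine (1.35, SE 0.089, adjusted p = 1.13e-05). The call of Trib3 was lost without control replicate 1 (0.53) or OGE replicate 3 (0.50).

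Of the 18 ATF4 genes above, 11 OGE means were short of control, 5 within and 2 past it, with a median of 58.2% of the way. The enzymes of serine and one-carbon synthesis were among them: Phgdh lay within the control range, Psph stopped at 56.8%, Psat1 at 77.8% and Mthfd2 at 37.4%. Chac1, which degrades glutathione, passed control (-0.61, SE 0.13, limma adjusted p = 0.00825). Slc7a11, the cystine importer, was higher in OGE than in control by 1.78 (SE 0.11, limma adjusted p = 8.34e-06) and was not separated. In the unfolded protein response, chaperones and folding enzymes of the endoplasmic reticulum, 2 of 22 genes (Herpud1 and Pdia6) had OGP above and 0 below. That share of 9.09% above was near the 9.72% of all tested genes. In 14 of the 22, among them Hspa5 (0.95, SE 0.096, limma adjusted p = 0.000147), OGE was called higher than control, beside 5.14% of all tested genes.

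The separated interferon-stimulated effectors lay highest in OGP and lowest in OGE. Gbp3 had 103, 81.2 and 90.8 FPKM in control, 146, 155 and 163 in OGP, and 47.9, 48.8 and 40.1 in OGE. Ifit3, which binds viral RNA complexes and whose copy Ifit3b can share its reads, had 408, 366 and 399 FPKM in control, 409, 457 and 454 in OGP, and 57.3, 58.1 and 39.4 in OGE. The OGP libraries of Ifit3 stood above control by a gap of only 0.0024, whereas OGE was lower than control by -2.93 (SE 0.14, limma adjusted p = 2.7e-06). Cmpk2, a mitochondrial nucleotide kinase, had at most 24.8 FPKM in control, 29.2 to 30.8 in OGP and 4.78 to 5.92 in OGE. Isg20, an exonuclease, was the exception among the 22, since its OGE mean lay within control (17.6, 19.0 and 19.9 against 18.8, 24.7 and 24.6 FPKM).

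The other 21 OGE means passed control, and 18 of the 22 genes were called lower in OGE, with a median difference of -0.90. The same call was made for 42 of all 47 tested effectors, beside 6.33% of all tested genes, so it was not limited to separated genes. Mx1, which blocks influenza virus, was lower by -3.28 (SE 0.18, limma adjusted p = 5.09e-06), while OGP, at 16.7 to 20.2 FPKM, overlapped control at 17.0 to 26.3. Of the genes of interferon sensing and signalling, 5 of 22 (22.7%) had OGP above, beside 9.72% of all tested genes. Among these, OGE was called lower than control in Irf7 (-1.40), Dhx58 (-1.10) and Tlr3 (-1.03). Ifnar1, a chain of the interferon receptor, and Jak1, a kinase of interferon signalling, had OGP below. The count above in this list was 11 without control replicate 1. In antigen presentation, 5 of 16 genes had OGP above, and Psmb10, a subunit of the immunoproteasome, had 43.7, 62.7 and 66.8 FPKM in control, 107, 114 and 121 in OGP, and 30.7, 30.1 and 29.7 in OGE (-0.90, SE 0.14, limma adjusted p = 0.0019).

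**Figure D4:**
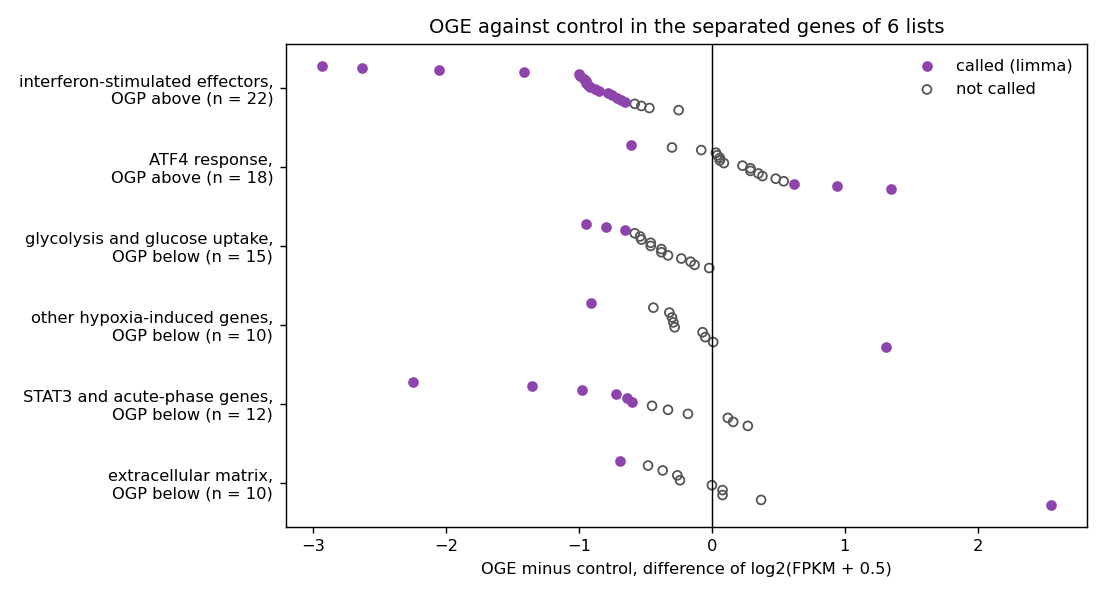
Difference of OGE from control on log2(FPKM + 0.5) (horizontal axis) for the separated genes of 6 lists, with 1 point a gene, filled where limma called it. All 22 interferon-stimulated effectors lie left of 0, most ATF4 genes lie right of it, and the 15 glycolytic genes all lie left of it.

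Genes of growth factor and early signalling were separated in small numbers. Dusp1, a phosphatase that ends MAP kinase signalling, had 19.5, 27.6 and 19.9 FPKM in control, 46.7, 53.1 and 47.8 in OGP, and 6.19, 4.18 and 5.81 in OGE (-1.95, SE 0.16, limma adjusted p = 4.7e-05). Spry1, another inhibitor of this pathway, was also past control (-0.66, SE 0.10, limma adjusted p = 0.00176). Klf4, Klf6, Myc and Nr4a1 were the 4 of 26 immediate-early factors with OGP above (15.4%, beside 9.72% of all tested genes). Fosl2 and Klf10 were the 2 with OGP below (7.69%, beside 11.4%). These counts were 7 above without control replicate 2 and 4 below without OGP replicate 1. Separated or not, 14 of the 26 immediate-early factors were called lower in OGE than in control and 1 higher. Over all tested genes 6.33% were called lower and 5.14% higher. Areg, an EGF receptor ligand, had OGP below and passed control in OGE (0.68, SE 0.17, limma adjusted p = 0.0166), while Egfr, its receptor, had OGP above and was within control in OGE. The call of Spry1 was lost without control replicate 1 (-0.58), and that of Areg without control replicate 3 (0.50), OGE replicate 2 (0.65) or OGE replicate 3 (0.62).

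In the extracellular matrix list, Lox, which crosslinks collagen, had 349, 287 and 249.8 FPKM in control, 73.1, 80.3 and 76.2 in OGP, and 242, 291 and 206 in OGE. Timp1, an inhibitor of matrix proteases, had 206, 278 and 268 FPKM in control, 93.3, 101 and 102 in OGP, and 252, 247 and 244 in OGE. Control and OGE overlapped in both, as they did in Fn1, fibronectin. Tnc, tenascin C, went 43.5% of the way and stayed lower (-0.69, SE 0.15, limma adjusted p = 0.00975), and Adam12, a metalloprotease, went from 0.605 to 0.726 FPKM in control and 0.401 to 0.531 in OGP to 5.71 to 7.23 in OGE (2.55, SE 0.12, limma adjusted p = 2.7e-06). Col3a1, Thbs1 and Prelp were the 3 with OGP above.

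Id1, an inhibitor of differentiation induced by BMP, had 79.9, 104 and 103 FPKM in control, 9.84, 11.3 and 8.26 in OGP, and 16.1, 13.6 and 17.7 in OGE. It was 20.7% of the way back and lower than control by -2.56 (SE 0.15, limma adjusted p = 6.59e-06). Smad9, a transducer of BMP signals, stopped at 21.5% (-1.93, SE 0.12, limma adjusted p = 1.08e-05). Of the antioxidant NRF2 genes, Aldh3a1, an aldehyde dehydrogenase, had 2.45, 2.52 and 2.47 FPKM in control, 29.5, 27.7 and 29.4 in OGP, and 17.2, 16.8 and 16.3 in OGE, 23.1% of the way (2.54, SE 0.064, limma adjusted p = 1.9e-07). Chrnb1, a subunit of the muscle acetylcholine receptor, stayed higher by 2.07 and the protease inhibitor Spink2 by 1.24. Sprr1a, of the cornified envelope, stayed lower by -2.38.

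The remaining lists are given by their counts, beside 9.72% above and 11.4% below over all tested genes. The EGF family and YAP-responsive growth genes had 4 of 16 above and 1 below, ERK feedback genes 3 of 17 above and 2 below, ID and BMP genes 2 of 20 above and 5 below, and mesenchymal markers 4 of 7 (57.1%) above (Acta2, S100a4, Vim and Eng) and 1 below (Pdgfra). DNA replication had 6 of 31 genes (19.4%) above and 2 below, mitosis and G2/M 2 of 30 above and 6 below, cholesterol and fatty acid synthesis 3 of 29 each way, NF-kB and inflammatory genes 4 of 20 above and 2 below, NRF2 4 of 26 above and 2 below, the circadian clock 3 of 16 each way, and nitric oxide and arginine metabolism 2 of 14 each way. Some of these counts moved by over 1.5 times without 1 library. Cholesterol and fatty acid synthesis had 5 above without OGP replicate 3 or control replicate 2, and 6 below without OGP replicate 1 and 5 without OGE replicate 3. NRF2 had 4 below without control replicate 1, mesenchymal markers 2 below without OGP replicate 1, and nitric oxide and arginine metabolism 4 above without OGP replicate 3. Ccl2, a chemokine of monocytes, stayed near OGP, at 613, 593 and 565 FPKM in OGE and 634, 680 and 683 in OGP against 349, 397 and 401 in control (0.63, SE 0.088, limma adjusted p = 0.000998). That call was lost without control replicate 1 (0.56).

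Gene length moved with the direction. The median length was 2832 bases for genes with OGP above, 5851 for genes below and 3783 for all tested genes. Among tested genes in 4 equal bins of length, 12.1% of the shortest had OGP above and 2.38% below, and 4.80% and 20.8% of the longest. Ribosomal protein genes, with a median length of 1776 bases, had 43 of 92 above (46.7%) and 2 below (2.17%). That share above exceeded the 9.72% of all tested genes and the 12.1% of the shortest bin. The part of length in it was not tested. Transcription factors, with a median of 4935 bases, had 3.93% of 840 above and 16.5% below, beside 9.72% and 11.4% of all tested genes. With the median deviation in 50 bins of gene length taken off each library, a correction chosen after seeing the data, 1300 genes lay above and 1311 below. The lists then held 21 interferon-stimulated effectors and 16 ATF4 genes above, and 13 glycolytic, 13 STAT3 and 12 other hypoxia genes below, close to the counts without it, while interferon sensing and signalling went from 5 to 10 above. Mitochondrial transcripts took 2.45 to 3.25% of reads in OGP, 1.10 to 2.31% in control and 2.03 to 2.90% in OGE, and their part in the pattern of length was not tested.

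**Figure D5:**
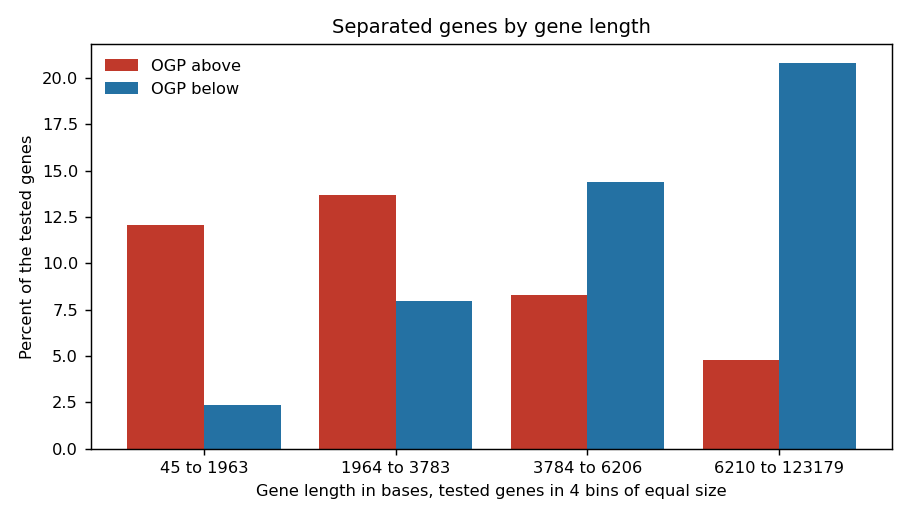
Percent of tested genes with OGP above (red) and below (blue) the 6 other libraries in 4 equal bins of gene length in bases. The share above is 12.1% in the shortest and 4.80% in the longest bin, and the share below is 2.38% and 20.8%.

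Some separated genes lay side by side in the genome. There were 13 runs of at least 4 neighbouring tested genes with OGP on the same side, where 9.72% of all tested genes had OGP above and 11.4% below. How many runs these shares alone would give was not tested, so nothing is read from their number. Of these, 8 had OGP above and 5 below. Among those above were Ifit2, Ifit3, Ifit1bl1 and Ifit3b on chromosome 19 (34550694 to 34613401 on mm10), Gbp9, Gbp4, Gbp10, Gbp6 and Gbp11 on chromosome 5 (105077630 to 105346472), and 5 Trim genes on chromosome 7 (104244457 to 104353362). The genes of each of these 3 runs belong to a family of near copies, so that reads can be shared between neighbours. The run of Apol9a, Apol10b, Apol9b and Apol8 on chromosome 15, also with OGP above, likewise held genes of the Apol family. Some other runs were not of this kind. Examples were Rnd3, Gm13493, Rbm43 and Nmi on chromosome 2 and Dapp1, Mttp, Trmt10a, Adh7 and Adh5 on chromosome 3. Among those with OGP below was the run of Pth1r, Prss46, Tmie and Als2cl on chromosome 9 (110722085 to 110900530).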

How the data were processed

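RNA from 9 libraries of HT22 cells was sequenced in paired ends. The authors aligned reads with HISAT2 2.0.5 to mm10 (per the submitters' processing notes), counted them per gene with featureCounts and deposited FPKM for 54532 gene IDs, with the FPKM tool not given in the sources used here. Of the RNA extraction, the methods of the study name TRIZOL and the labels an RNeasy kit. Strand use in counting is not stated, so overlapping and antisense genes cannot be told apart. FPKM times length was a whole number of reads (within 0.1) in every library, which gave the depths. This was checked only in genes up to a set number of reads.

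Genes averaging 0.5 FPKM or more were fitted on log2(FPKM + 0.5) with limma 3.58.1 (R 4.3.3, trended empirical Bayes, 9 libraries and 3 groups in 1 model), with Benjamini-Hochberg adjustment over every tested gene. Calls needed 1.5-fold or more and an adjusted p no higher than 0.05. Fold changes on this scale understate those of low genes. DESeq2, the test of the authors, was not run, and recovered reads were tested with voom as an alternative. The limma step was tested on simulated data.

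The rule, the 27 gene lists and the tests were chosen with earlier results of these data known, so a count over a list is a description. Named genes are the 10 widest gaps each way (protein coding, with a symbol of no predicted locus and a higher group of 1 FPKM or more), up to 4 genes each way per list, up to 6 each way called short of or past control, and the genes nearest the threshold. Not every gene that this rule takes is reported here. Genes named outside this rule, such as Stat3, Ldha, Slc2a1, Serpina3n, Saa3, Mx1, Vegfa and Slc7a11, were chosen after their values were seen. Promoter matching by symbol was extended with gene IDs and synonyms.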

Additional observations from a re-analysis of the deposited data

How the results depend on the processing

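Leaving out 1 library can only add separated genes, and gave 1370 to 1981 above and 1570 to 2200 below. The OGE mean was then within control in 295 to 916 genes above and 322 to 870 below, short in 498 to 644 and 696 to 864, and past in 284 to 573 and 280 to 559. Control replicate 1 sets much of this range, since without it 295 and 322 were within and 573 and 559 past, and without OGP replicate 1 there were 1981 above, of which 916 were within and 421 past, and 470 past below. OGP against the mean of both others gave 423 to 611 higher and 338 to 484 lower, and OGE against control called 49 to 69 short and 76 to 103 past above, and 74 to 102 short and 23 to 33 past below. Without both control replicate 1 and OGE replicate 3, chosen after seeing the data, 319, 757 and 607 genes above were within, short and past, and 367, 1006 and 586 below.

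With a gap of at least 1.5-fold, 67 genes above (17 within, 16 short, 34 past) and 54 below (13, 24 and 17) were left. Placed by the share of the way (80 to 120% as at control), 363 genes above were within. A pseudocount of 1 called 33 genes above short, and voom on recovered reads 39 below past. With no fold threshold, 1663 genes were higher and 1862 lower in OGP, and OGE against control called 176 short and 138 past above, and 256 and 81 below. The cause of these changes was not tested, beyond fewer or more genes meeting a rule. The other alternatives (filters, scalings, protein-coding genes, robust variance, gene length) left every such count within 1.5 times. Deviations from the group means correlated at -0.177 to 0.319 between libraries of equal replicate number. Between unlike numbers the range was -0.346 to 0.264. The highest value was between control replicate 3 and OGE replicate 3. Pairing can be neither shown nor excluded from so few libraries. The replicate block called 52 and 87 genes above short and past, and 80 and 24 below. Of 52 named genes called in OGE against control, 39 were called under every alternative and none changed direction. Vcam1, Acox2, Trib3, Cebpd, Areg, Spry1, Acta2 and Pdia6 were among the 13 that lost the call under some. With 3 libraries a group, outliers within a group were not tested.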
